A study of Homo sapiens with 6 samples.

Results

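Messenger RNA of 10 genes that modify DNA or histones, or feed those reactions, and that are often mutated or misregulated in acute myeloid leukaemia was followed in a leukaemia cell line after knockdown of OSGEP. The 10 were chosen by name, with earlier results of these data known. They included the DNA methyltransferase genes DNMT1, DNMT3A and DNMT3B and the methylcytosine dioxygenase genes TET2 and TET3. The others were the histone modifier genes EZH2, ASXL1 and KMT2A and the isocitrate dehydrogenase genes IDH1 and IDH2. Each of the 10 matched 1 of 58302 Ensembl genes in the count tables. HL-60 is an established human acute myeloid leukaemia line of promyelocyte-like cells that grows in suspension. One group held 3 libraries from HL-60 cells carrying a short hairpin RNA (shRNA) against OSGEP, and the other 3 libraries from HL-60 cells carrying a control shRNA, with a genotype given as WT, so all 6 libraries came from hairpin-carrying cells. The labels do not say how many hairpins against OSGEP were used, whether the lines are clones, or whether libraries that share a label came from separate cultures, and the p-values therefore rest on library-to-library spread alone, part of which may be technical. OSGEP encodes the catalytic subunit of the KEOPS complex, which makes the t6A modification of tRNA, and the study asked what it does in acute myeloid leukaemia.

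DNA methylation is written on CpG sites by DNMT3A and DNMT3B and copied to new strands after replication by DNMT1, while TET enzymes oxidise it and so start its removal. EZH2 is the catalytic subunit of Polycomb repressive complex 2 (PRC2), which methylates histone H3 at silent genes. ASXL1 is a partner of the deubiquitinase BAP1, which removes ubiquitin from histone H2A, and KMT2A, also known as MLL, methylates histone H3 at active promoters. IDH1 in the cytosol and IDH2 in mitochondria make 2-oxoglutarate, the co-substrate of TET enzymes and of many histone demethylases, and their leukaemia mutants make 2-hydroxyglutarate, which blocks those enzymes. These data measure transcript levels and say nothing of mutations, protein or methylation.

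Total counts ran from 8326982 to 10157091 per library. OSGEP itself stood at 21.2, 23.1 and 20.9 CPM (counts scaled to a library of 1000000) in knockdown libraries 1, 2 and 3, against 49.05, 54.4 and 76.9 CPM in control libraries 1, 2 and 3, a log2 fold change of -1.47 (SE 0.21, edgeR adjusted p = 0.000228). Of 6 promyelocyte markers all were detected, and 4 of them (MPO, AZU1, PRTN3 and ELANE) fell, with a summed level of 897 to 1065 CPM in knockdown libraries and 2649.7 to 2815 CPM in control libraries. Among erythroid markers HBG1 was at 0 in all 6 libraries, and the list summed to 0.939 to 7.12 CPM after knockdown, against 2.95 to 7.93 CPM in control libraries. Lymphoid markers summed to 24.8 to 28.8 CPM in knockdown libraries and 84.1 to 98.5 CPM in control libraries, nearly all of it NKG7, which fell; CD3E and CD3D averaged 0.495 and 0.171 CPM in knockdown libraries and 0.219 and 0.213 CPM in control libraries. Epithelial and mesenchymal markers summed to 25.3 to 39.1 CPM in knockdown libraries and 16.8 to 27.1 CPM in control libraries, with 0 of 4 tested called. KRT8 averaged 19.1 CPM in knockdown libraries and 8.31 CPM in control libraries, with groups apart (log2 fold change 1.198, edgeR adjusted p = 0.0525), and passed the test in 6 of 13 alternatives. The part of any of these in the results was not tested, and in bulk RNA fewer cells of a type and less RNA per cell cannot be told apart.

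All 10 regulators passed the filter on low counts. Relative to the control, DNMT1 and EZH2 fell and IDH1 rose in the knockdown, by 0.44 to 0.53 on the log2 scale in size, and the other 7 did not pass the test. The 3 called genes, 1 higher and 2 lower, compare with 10.8% of the 14018 genes tested, 5.19% higher and 5.56% lower (edgeR quasi-likelihood test, adjusted p under 0.05). In 5 of the 10, DNMT1, EZH2, ASXL1, KMT2A and IDH1, the groups did not overlap, 1 higher and 4 lower, against 28.9% of all genes tested, 13.3% higher and 15.6% lower. The median log2 fold change was -0.18 over the 10 genes and 0.0055 over all genes tested. With 10 genes, these shares describe the group and do not set it apart from other genes.

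**Figure D1:**
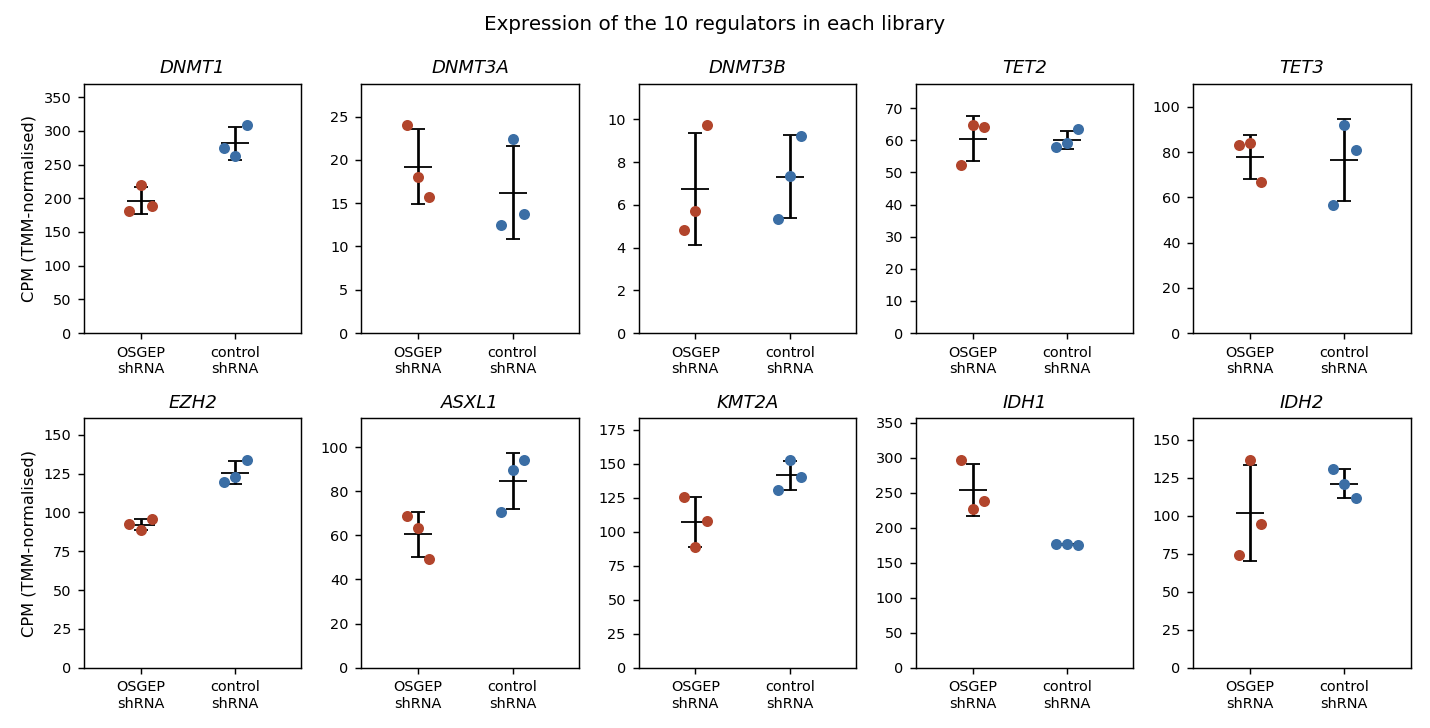
CPM of each regulator (vertical axis, TMM-normalised, each panel from 0 with its own scale) in the 3 OSGEP shRNA libraries, left, and the 3 control shRNA libraries, right, as points with the group mean and SD. The groups are apart for DNMT1, EZH2, ASXL1, KMT2A and IDH1 and overlap for the other 5 genes.

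Levels differed widely between the genes. Per kilobase of annotated exon, IDH1 had 53.7 ± 7.98 CPM in knockdown cells, against 37.3 ± 0.233 CPM in control cells, and IDH2 had 36.2 ± 11.3 CPM in knockdown cells, against 43.1 ± 3.34 CPM in control cells (SD, n = 3 each). EZH2 and DNMT1 came next, at 20.4 ± 0.801 and 20.1 ± 2.02 CPM per kilobase in the knockdown, against 27.7 ± 1.64 and 28.7 ± 2.45 in the control, and these neighbours overlapped in both groups. TET3, ASXL1, TET2 and KMT2A lay between 3.43 and 6.35 CPM per kilobase on average in the knockdown and between 3.66 and 6.23 in the control. DNMT3A and DNMT3B were lowest, at 1.5996 ± 0.358 and 1.46 ± 0.565 CPM per kilobase in the knockdown, against 1.35 ± 0.449 and 1.58 ± 0.418 in the control, and did not differ from each other beyond their spread. Per kilobase, the order at the top turned round: IDH1 led in the knockdown, where the pair overlapped, and IDH2 led in the control, where it did not. The IDH2 lead rests on the exon lengths, 4721 bases for IDH1 and 2814 for IDH2. In counts not divided by length, IDH1 stood above IDH2 in all 6 libraries. The lengths join all annotated exons of a gene, so the per-kilobase level may be understated for genes with long unused exons.

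DNMT1, the maintenance methyltransferase gene (ENSG00000130816, chromosome 19, 10133345 to 10231286, minus strand, GRCh38), had 182, 219 and 188 CPM in knockdown libraries 1, 2 and 3, against 274, 262 and 309 CPM in control libraries 1, 2 and 3. Every knockdown library lay below every control library. It averaged 196 ± 19.8 CPM in knockdown cells, against 282 ± 24.05 CPM in control cells (SD, n = 3 each), a log2 fold change of -0.52 (SE 0.12, 95% interval -0.77 to -0.27, edgeR adjusted p = 0.00907). The call was lost without knockdown 3 (-0.48, edgeR adjusted p = 0.0668) or control 3 (-0.45, edgeR adjusted p = 0.0801). S1PR2 overlaps its exons on the same strand and held 85 counts in all 6 libraries together, against 1589 to 2660 for DNMT1 in each library.

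The de novo enzymes were rare transcripts. DNMT3A (ENSG00000119772, chromosome 2, 25227855 to 25342590, minus strand) had 24.0, 18.03 and 15.7 CPM in knockdown libraries 1, 2 and 3, against 12.5, 22.4 and 13.8 CPM in control libraries 1, 2 and 3. DNMT3B (ENSG00000088305, chromosome 20, 32762385 to 32809356, plus strand) had 4.80, 5.73 and 9.73 CPM in the knockdown, against 5.36, 7.36 and 9.23 CPM in the control, from 46 to 82 counts per library. For both genes the groups overlapped. Their log2 fold changes were 0.24 (95% interval -0.41 to 0.90, edgeR adjusted p = 0.724) and -0.12 (95% interval -1.12 to 0.88, edgeR adjusted p = 0.925). With SEs of 0.31 and 0.47, against 0.12 for DNMT1, a change as large as that of DNMT1 was not detectable for either gene. Single libraries moved the DNMT3A value, which was 0.05 without knockdown 1, 0.08 without control 1 and 0.55 without control 2.

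TET2, often lost in myeloid disease, and TET3 showed no called difference. TET2 (ENSG00000168769, chromosome 4, 105145875 to 105279816, plus strand) had 52.4, 64.7 and 64.3 CPM in knockdown libraries 1, 2 and 3, against 58.01, 59.3 and 63.4 CPM in control libraries 1, 2 and 3. Its log2 fold change was 0.0055 with a 95% interval of -0.34 to 0.35 (edgeR adjusted p = 0.991). TET3 (ENSG00000187605, chromosome 2, 73986404 to 74108176, plus strand) had 83.3, 83.8 and 66.7 CPM in the knockdown, against 56.8, 91.8 and 80.7 CPM in the control. The lowest and the highest of these TET3 values were both controls, and its log2 fold change was 0.03, with a 95% interval of -0.36 to 0.42 (edgeR adjusted p = 0.955). TET2-AS1, on the opposite strand of TET2, had 4 counts in all.

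EZH2, the PRC2 methyltransferase gene (ENSG00000106462, chromosome 7, 148807383 to 148884321, minus strand), had 92.7, 88.4 and 95.6 CPM in knockdown libraries 1, 2 and 3, against 119.5, 123 and 134 CPM in control libraries 1, 2 and 3. The values within each group were tight, with a coefficient of variation of 3.93% in the knockdown and 5.92% in the control, and the groups were apart. Means were 92.2 ± 3.62 CPM in knockdown cells, against 125 ± 7.42 CPM in control cells (SD, n = 3 each), a log2 fold change of -0.44 (SE 0.13, 95% interval -0.72 to -0.17, edgeR adjusted p = 0.0404). The call stood near the threshold: 10 of 13 alternatives lost it, among them leaving out any 1 library, with log2 fold changes of -0.48 to -0.38 over all 13 and adjusted p-values of 0.0182 to 0.184. The pseudogene EZH2P1, which may share reads with EZH2, had 3 to 25 counts per library.

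DNMT1 and EZH2 are expressed mostly in dividing cells, and both are known targets of E2F factors, which drive S phase genes. RefSeq promoter windows of 300 bases (GRCh38.p14) were searched on both strands for the E2F octamers TTTGGCGC and TTTCGCGC and for 2 other motifs, all picked after the sequences were seen. All 10 regulators had at least 1 window, and DNMT1 and EZH2 alone among them held an octamer, each at the start site. Over all genes, 382 of 27305 held one (1.4%). The CCAAT box (CCAAT) was in 4 of the 10 genes, against 39.7% of all genes, and the E-box CACGTG in 3 of the 10, against 8.77%. Since the motifs were picked from these sequences, the shares describe them and test nothing. The stretches shown run from 100 bases before to 30 bases after the start, 5′ to 3′ on the minus strand, chr19:10194924-10195053 for DNMT1 and chr7:148884262-148884391 for EZH2, with the octamer in capitals, read on the opposite strand in DNMT1.
DNMT1: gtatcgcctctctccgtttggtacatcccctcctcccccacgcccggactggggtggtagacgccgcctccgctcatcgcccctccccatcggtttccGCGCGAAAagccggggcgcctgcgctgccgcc
EZH2: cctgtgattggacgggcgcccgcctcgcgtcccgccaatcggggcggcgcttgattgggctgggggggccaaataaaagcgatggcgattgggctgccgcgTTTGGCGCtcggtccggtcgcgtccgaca

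A letter match is a description and not a site, and a window without one says nothing of the factor. Of 31 S phase genes tested, 13 fell, 0 rose and 18 were not called (41.9% called, against 10.8% of all genes tested), with a median log2 fold change of -0.44 against 0.0055 over all genes tested. GINS2 and GINS1, which belong to the helicase at replication forks, fell by 1.09 (SE 0.23) and 1.00 (SE 0.17) on the log2 scale, and POLA1, the catalytic subunit of DNA polymerase alpha, by 0.79 (SE 0.17). The count was 8 without control 3. The list was chosen with earlier results of these data known, so its share describes it and tests nothing. The part of the S phase genes in the fall of DNMT1 and EZH2 was not tested.

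For ASXL1 and KMT2A all 3 knockdown values lay under the lowest control value, yet neither gene passed the test. ASXL1 (ENSG00000171456, chromosome 20, 32358330 to 32439319, plus strand) had 68.5, 63.4 and 49.2 CPM in knockdown libraries 1, 2 and 3, against 70.4, 89.4 and 94.1 CPM in control libraries 1, 2 and 3. Knockdown 1 and control 1 were nearly level, and the log2 fold change was -0.49 (SE 0.17, edgeR adjusted p = 0.0933). KMT2A (ENSG00000118058, chromosome 11, 118436464 to 118526832, plus strand) had 126, 88.7 and 108 CPM in the knockdown, against 131, 153 and 140 CPM in the control. Here too knockdown 1 stood close to control 1, and the log2 fold change was -0.40 (SE 0.15, edgeR adjusted p = 0.105). Both genes had an unadjusted p under 0.05 (0.0131 and 0.0160, edgeR) but both depended on single libraries. ASXL1 was at -0.59 without knockdown 1 (edgeR adjusted p = 0.0491, past the threshold) and at -0.34 without knockdown 3 (edgeR adjusted p = 0.335). KMT2A was at -0.53 without knockdown 1 (edgeR adjusted p = 0.0256, past the threshold) and at -0.26 without knockdown 2 (edgeR adjusted p = 0.319).

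IDH1 was the 1 regulator that rose. This cytosolic isocitrate dehydrogenase gene (ENSG00000138413, chromosome 2, 208236227 to 208266074, minus strand) had 297, 227 and 238 CPM in knockdown libraries 1, 2 and 3, against 177, 177 and 175 CPM in control libraries 1, 2 and 3. All knockdown values lay above all controls, which were nearly equal. It averaged 254 ± 37.7 CPM in knockdown cells, against 176 ± 1.098 CPM in control cells (SD, n = 3 each), a log2 fold change of 0.53 (SE 0.12, 95% interval 0.26 to 0.79, edgeR adjusted p = 0.0110). The call was lost without control 2 (0.52, edgeR adjusted p = 0.0632) or control 3 (0.52, edgeR adjusted p = 0.0670). IDH1-AS1, which overlaps IDH1 exons on the opposite strand, had 0 counts in the knockdown libraries and 16, 3 and 0 counts in control libraries 1, 2 and 3, few beside the 1422 to 2843 counts of IDH1 per library.

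IDH2, the mitochondrial enzyme gene (ENSG00000182054, chromosome 15, 90083045 to 90102504, minus strand), had 74.4, 137 and 94.4 CPM in knockdown libraries 1, 2 and 3, against 131, 121 and 112 CPM in control libraries 1, 2 and 3. The knockdown libraries lay on both sides of the controls, with a coefficient of variation of 31.3% in the knockdown and 7.74% in the control. Its log2 fold change was -0.25 (95% interval -0.64 to 0.14, edgeR adjusted p = 0.481). Knockdown 1 held both the highest IDH1 and the lowest IDH2 value, and IDH2 stood at -0.07 without it and at -0.52 without knockdown 2 (edgeR adjusted p = 0.868 and 0.0513).

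**Figure D2:**
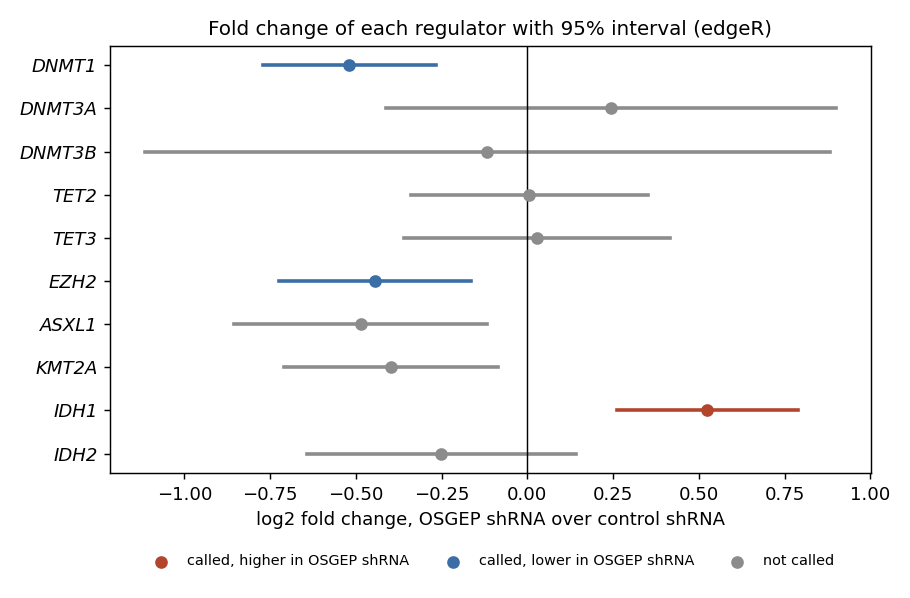
Log2 fold change of each regulator, OSGEP shRNA over control shRNA (horizontal axis), as a point with its 95% interval from the edgeR fit on 3 libraries a group. DNMT1 (-0.52) and EZH2 (-0.44) were called lower and IDH1 (0.53) higher, and the intervals of DNMT3A and DNMT3B are the widest of the 10.

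Ratios of related genes within a library do not depend on how libraries are scaled. The log2 ratio of IDH2 to IDH1 counts was -1.995, -0.73 and -1.33 in knockdown libraries 1, 2 and 3, against -0.44, -0.54 and -0.64 in control libraries 1, 2 and 3. Every knockdown ratio lay below every control ratio, and the means differed by -0.81, with an exact two-sided permutation p of 0.1, the smallest that 3 against 3 libraries can give (Benjamini-Hochberg adjusted p = 0.4 over 4 ratios). The difference was -0.49 without knockdown 1. For EZH2 over its paralog EZH1, the other PRC2 methyltransferase gene, log2 ratios were 2.38, 2.08 and 1.67 in the knockdown and 2.23, 2.63 and 2.99 in the control, with overlapping groups (difference -0.57, exact permutation p = 0.2). DNMT3A over DNMT3B and TET3 over TET2 overlapped as well, with differences of 0.42 and 0.05 (exact permutation p = 0.4 and 0.7). The DNMT3A to DNMT3B difference was 0.04 without knockdown 1 and 0.85 without knockdown 3.

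**Figure D3:**
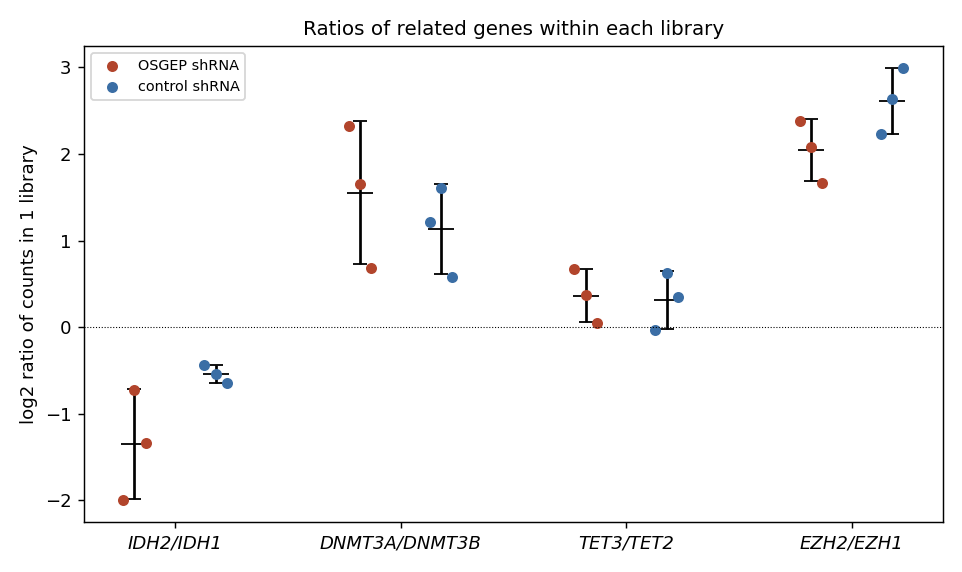
Log2 ratio of the counts of 2 related genes within each library (vertical axis), with OSGEP shRNA libraries left of control shRNA libraries in each pair, and the group mean and SD. The IDH2 to IDH1 ratio is lower in all 3 knockdown libraries (-1.995 to -0.73) than in the controls (-0.64 to -0.44), and the other 3 ratios overlap.

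Partners of the DNA methylation enzymes included rises and falls. Of 19 tested, 2 rose and 3 fell (26.3% called, against 10.8% of all genes tested), with a median log2 fold change of -0.23. CDCA7, which with HELLS forms a remodeller that aids methylation, fell to 119 ± 13.8 CPM in the knockdown, against 295 ± 35.6 CPM in the control (log2 fold change -1.30, SE 0.13), and its relative CDCA7L fell by 1.07 (SE 0.21). ZBTB38, which binds methylated DNA, rose by 2.31 (SE 0.56) on the log2 scale. GADD45A rose by 0.56 and GADD45B, its relative in the removal of methylated cytosine, fell by 0.80. HELLS had a log2 fold change of -0.41 (edgeR adjusted p = 0.109), and UHRF1, which brings DNMT1 to newly copied DNA, had 0.16 (edgeR adjusted p = 0.858). TET1, the third TET gene, averaged 0.760 CPM in knockdown cells, against 3.61 CPM in control cells, and was not called (edgeR adjusted p = 0.177), and DNMT3L had 0 counts. The ZBTB38 call was lost with limma-voom (2.20) and without knockdown 1 (1.84) or control 3 (2.16), that of GADD45A without any library but knockdown 2 or 3 (0.38 to 0.64) and that of GADD45B without any but knockdown 2 (-0.85 to -0.66) and with library size only (-0.72). The list's count was 3 without knockdown 1, control 1 or control 2 and 2 without control 3.

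Of 12 tested genes listed as PRC2 partners of EZH2, among them its paralog EZH1, edgeR called 0, against 10.8% of all genes tested. DESeq2 called 2 and limma-voom called 1, against 1874 and 1553 of all 14018 genes tested. RBBP4, a histone-binding subunit, and LCOR were the 2 with an unadjusted edgeR p under 0.05, at log2 fold changes of -0.48 and 0.54. The median of the 12 was -0.05. The core subunits EED and SUZ12 had log2 fold changes of 0.11 and -0.14, and EZH1 had 0.14. RBBP7, the relative of RBBP4 and the gene with the highest CPM of the list, stood at 269 ± 17.6 CPM in knockdown cells, against 302 ± 32.4 CPM in control cells (-0.17, edgeR adjusted p = 0.442). The sign of SUZ12 turned positive without knockdown 2 or control 2.

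Genes around ASXL1 and the H2A ubiquitin mark went both ways. Of 25 BAP1 and PRC1 genes tested, 2 rose and 3 fell (20% called, against 10.8% of all genes tested, median 0.01). PCGF2 and PCGF3, alternative subunits of Polycomb repressive complex 1, rose by 1.41 (SE 0.34) and 0.77 (SE 0.20) on the log2 scale, and PHC3, a Polyhomeotic subunit, fell by 0.73 (SE 0.19). OGT, which glycosylates proteins and binds BAP1, fell by 0.61 and CBX6 by 0.54. The count was 2 in each of the 5 fits that left out a library other than knockdown 1. PCGF2 lost its call without knockdown 1 (1.22) or control 2 (1.25), PCGF3 without any library but knockdown 1 (0.66 to 0.84), and PHC3 without knockdown 2 (-0.62), knockdown 3 (-0.74), control 1 (-0.59) or control 3 (-0.74). CBX6 lost it in edgeR with RLE size factors and with library size only (-0.53 and -0.48). The CBX6 call was also lost without any library but knockdown 1 (-0.62 to -0.42).

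Among 20 KMT2 complex and MLL partner genes, 1 rose and 1 fell (10% called, against 10.8% of all genes tested, median -0.14). AFF4, a scaffold of the super elongation complex, rose to 52.6 ± 10.5 CPM in the knockdown, against 24.8 ± 4.46 CPM in the control (log2 fold change 1.08, SE 0.22). DOT1L, the H3 methyltransferase that MLL fusions recruit, fell by 0.71 (SE 0.18), a call lost without knockdown 3 (-0.69), control 2 (-0.66) or control 3 (-0.70), which left a count of 1. MEN1, a tether of KMT2A, had a log2 fold change of 0.18 (edgeR adjusted p = 0.682). PSIP1, of the same list, had -0.75 (SE 0.24, edgeR adjusted p = 0.0574), with groups apart, and was not called. Of the 20 log2 fold changes, 15 were negative and 5 positive.

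Of 7 tested genes known as KMT2A targets, 3 fell and 0 rose (42.9% called, against 10.8% of all genes tested, median -0.85). The count was 3 under all 13 alternatives. The median is the value of HOXA5, an uncalled gene of low level (1.499 CPM on average in the knockdown, against 2.73 CPM in the control, SE 0.99). MYB, FLT3 and CDK6, regulators of progenitor growth, fell by 1.39 (SE 0.17), 1.46 (SE 0.28) and 1.02 (SE 0.14) on the log2 scale. The part of KMT2A, itself not called (edgeR adjusted p = 0.105), in these falls was not tested. HOXA9 and MEIS1, the best known of these targets, were near absent, with means of 0.139 and 0.0696 CPM in the knockdown, against 0.0410 and 0.177 CPM in the control, and were not tested. HOXA10 was expressed, at 24.6 CPM on average in the knockdown, against 21.6 CPM in the control. It was tested and not called (log2 fold change 0.18, edgeR adjusted p = 0.823). PBX3 and MEF2C were not called either, at log2 fold changes of -0.15 and -0.67 (edgeR adjusted p = 0.902 and 0.601).

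The isocitrate and 2-oxoglutarate enzymes included 2 rises and 0 falls among 14 tested (14.3% called, against 10.8% of all genes tested, median 0.03). GOT1, the cytosolic aspartate aminotransferase, rose to 59.4 ± 5.62 CPM in the knockdown, against 33.4 ± 5.56 CPM in the control (log2 fold change 0.83, SE 0.19), and DLD, a shared subunit of 2-oxo acid dehydrogenases, rose by 0.56 (SE 0.15). Both calls were lost without control 1 or control 3, where GOT1 stood at 0.73 and 0.78 and DLD at 0.56 and 0.51. DLD was also lost without knockdown 1 (0.43) or control 2 (0.60).

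Of 19 genes listed as histone demethylases that use 2-oxoglutarate, 0 were called by edgeR, DESeq2 or limma-voom. Over all 14018 genes tested, edgeR called 10.8%, DESeq2 1874 genes and limma-voom 1553 genes. KDM2A and KDM3A had an unadjusted edgeR p under 0.05. The median of the 19 was 0.03. KDM5A and KDM2A, with the highest CPM of the list, stood at 123 ± 7.32 and 88.8 ± 5.57 CPM in the knockdown, against 126 ± 11.2 and 110.4 ± 5.68 CPM in the control.

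Other chromatin genes mutated in acute myeloid leukaemia included 2 falls and 0 rises among 13 (15.4% called, against 10.8% of all genes tested, median -0.15). SMC3, a subunit of cohesin, the ring that holds DNA loops, fell to 95.9 ± 8.74 CPM in the knockdown, against 147 ± 11.005 CPM in the control (log2 fold change -0.62, SE 0.13), and SMC1A, another subunit, fell by 0.41 (SE 0.12). The cohesin subunits RAD21 and STAG2 were not called, at log2 fold changes of -0.15 and 0.06 (edgeR adjusted p = 0.524 and 0.859). WT1 had the lowest log2 fold change of the list, -0.93 (SE 0.30, edgeR adjusted p = 0.0563), with groups apart, and was not called. Of the 13 log2 fold changes, 9 were negative and 4 positive. SMC3 lost its call without control 3 (-0.56), and SMC1A in every fit that left out a library other than knockdown 1 (-0.46 to -0.31) and with size factors other than TMM (-0.39 and -0.35). The count was 1 without knockdown 2, knockdown 3, control 1 or control 2 and 0 without control 3.

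**Figure D4:**
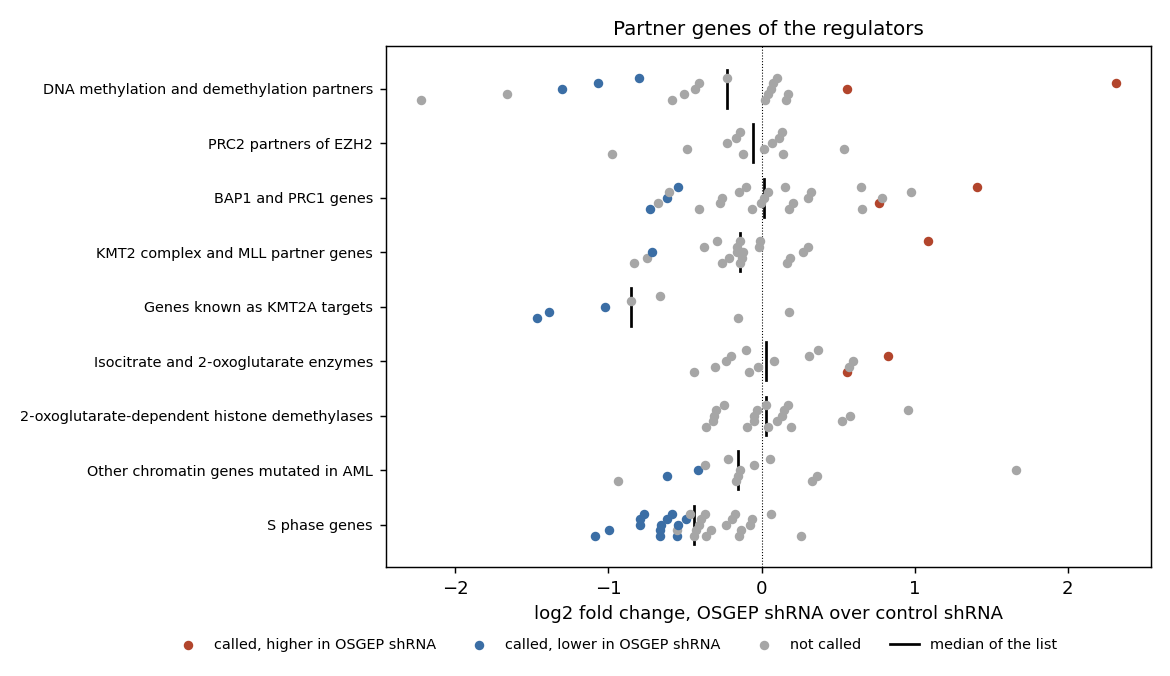
Log2 fold change of every tested partner gene, OSGEP shRNA over control shRNA (horizontal axis), by list, with called genes in colour and the median of each list as a black line. Among S phase genes 13 are called, all lower, and 0 PRC2 partners and 0 histone demethylases are called.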

How the data were processed

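RNA was sequenced from 6 HL-60 libraries. Per the labels' protocols, total RNA went into a stranded mRNA library kit and was read as paired ends of 150 bp. The authors deposited 1 table of raw counts per library. The tools featureCounts 1.6.3 and HISAT2 2.1.0 appear in the submitters' processing notes, with no role or settings, as do the builds GRCh38 and GRCm38. The annotation, strand setting and treatment of multiply aligned reads were not given in the sources used here. Symbols, positions and exon lengths came from GENCODE release 29 (GRCh38) and a table of current names, and promoters from RefSeq. Counts were fitted in R 4.3.3 with edgeR 4.0.16 (quasi-likelihood F test, group as only term, TMM, filterByExpr defaults), two-sided, Benjamini-Hochberg adjusted over the 14018 genes kept, and called at an adjusted p under 0.05. Each SE was the absolute fold change over the square root of F. CPM values are TMM-normalised. The steps were tested on simulated counts. Named partners are, per list, the 3 largest changes among called genes whose CPM averaged 5 or more, or else the 2 with the highest CPM; others named beside them were chosen after their values were seen. Members and lists were chosen with earlier results of these data known. DESeq2 1.42.0, limma-voom (limma 3.58.1), other scaling and filters, a replicate block and leaving out each library were tried as alternatives.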

Additional observations from a re-analysis of the deposited data

How the results depend on the processing

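DNMT1, EZH2 and IDH1 kept their direction under all 13 alternatives, while the number called changed when single libraries were left out. Each omission also leaves fewer libraries to test with, and the part of this in the lost calls was not tested. Leaving out 1 library at a time gave 870 to 1624 called genes in all (445 to 726 higher, 423 to 898 lower), and 0 to 4 called regulators (0 to 1 higher, 0 to 3 lower), with 4 without knockdown 1 and 0 without control 3. EZH2 lost its call with RLE size factors, with library size only, with no filter beyond 1 read and with the replicate block, which left 1 regulator lower in each. Deviations of same-numbered libraries correlated at -0.116, -0.0618 and -0.0368, so the numbers were not taken as pairs. The replicate block called 1072 genes in all, 3 DNA methylation partners, 3 BAP1 and PRC1 genes, 1 isocitrate and 2-oxoglutarate enzyme and 1 other chromatin gene. It ended the calls of PCGF3, DLD, SMC1A, GADD45A, GADD45B and CBX6 (edgeR adjusted p 0.0577, 0.0636, 0.0784, 0.0926, 0.0538 and 0.0645). RLE size factors and library size only also called 1 other chromatin gene. PRC2 partners had 1 call with library size only, 1 with a mean CPM of at least 5, 2 with DESeq2 and 1 with limma-voom. Single omissions gave 2 to 5 calls for DNA methylation partners, 0 to 1 for PRC2, 2 to 4 for BAP1 and PRC1, 1 to 3 for KMT2 complexes, 0 to 2 for isocitrate and 2-oxoglutarate enzymes, 0 to 3 for other chromatin genes and 8 to 16 for S phase genes. Signs of uncalled genes turned: over single omissions DNMT3B ran between -0.46 and 0.080, TET2 between -0.037 and 0.097, TET3 between -0.15 and 0.18, SUZ12 between -0.28 and 0.011, UHRF1 between -0.27 and 0.54, EZH1 between -0.089 and 0.32, STAG2 between -0.0048 and 0.12 and the TET3 to TET2 ratio difference between -0.13 and 0.21. TET2 was at -0.00017 with the replicate block, and KDM5A at 0.039 with library size only and between -0.11 and 0.014 over single omissions. With library size only, 859 genes were higher and 612 lower, against 727 and 780 with TMM. The cause of these shifts was not tested.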
